A study of Populus tomentosa with 4 samples.

Results

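The miR159 family of Chinese white poplar (Populus tomentosa) was represented by 5 microRNA names, ptc-miR159a, ptc-miR159b, ptc-miR159c, ptc-miR159d and ptc-miR159e, among 193 names that the authors' deposited table compares between shoot tips and leaves. The members were taken by name, as every listed name made of ptc-miR159 and a letter. Every listed name had an authors' FDR, an adjusted p-value, below 0.05, so a member without a called difference would not appear here. MiR159a and miR159b share 1 mature sequence, so the 5 names stood for 4 of the 107 distinct sequences listed. Both tissues came from healthy trees 20 years old that grew outdoors, and each was sequenced as small RNA in 2 libraries, 4 in all. The shoot tips, called SAM in the labels after the shoot apical meristem, were collected with their surrounding leaves as the second group, and neither group carried a treatment or a transgene. A shoot tip is a mixture of meristem, young leaf and stem cells, and no messenger RNA was measured, so the tissue labels could not be checked against marker genes, and a larger share of cells with a microRNA cannot be told apart from more of it per cell. Whether separate trees gave the libraries of each tissue is not in the labels, so the spread behind the authors' adjusted p-values may be technical.

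MiR159 is among the oldest and most abundant microRNA families of land plants. It guides the silencing of transcripts for GAMYB-type transcription factors, MYB proteins of the gibberellin response first studied in the cereal aleurone, and in Arabidopsis it keeps MYB33 and MYB65 low in vegetative tissue, where their activity stunts growth. The related miR319 family is known for silencing TCP factors, which restrain cell division in leaves. Plant microRNAs pair with their targets over most of their length, so bases outside the seed also count.

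The mature sequences below are printed because the members differ by few bases while their predicted targets differ widely. They are given 5′ to 3′ as listed in the authors' deposited table, and capitals mark the seed, bases 2 to 8.
miR159a/b: uUUGGAUUgaagggagcucua
miR159d: cUUGGAUUgaagggagcuccu
miR159c: aUUGGAGUgaagggagcucga
miR159e: cUUGGGGUgaagggagcuccu
The related miR319 sequences are 1 base shorter and start at what is position 2 of miR159.
miR319a/b/c/d: uUGGACUGaagggagcuccc
miR319e/f/g/h: uUGGACUGaagggagcuccu
miR319i: uUGGGCUGaagggagcuccc

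All 4 miR159 sequences were 21 nt long, and 16 of the 21 positions held the same base in each. The longest shared stretch was ugaagggagcuc, positions 8 to 19, and all 16 positions were also the same in the 3 miR319 sequences. Positions are counted from 1 at the 5′ end of miR159a, whose base is written first. MiR159d differed from miR159a by U1C, U20C and A21U, which lie at both ends and leave the seed UUGGAUU in common. MiR159c also differed at 3 positions, U1A, U7G and U20G, of which U7G changes the seed to UUGGAGU. MiR159e was the most distant, with U1C, A6G, U7G, U20C and A21U and the seed UUGGGGU. The first base thus was U in miR159a and miR159b, C in miR159d and miR159e, and A in miR159c. Over the positions they share, miR159d was 1 substitution from miR319e/f/g/h, closer than to any other miR159 sequence. The nearest miR319 sequences to miR159e, miR319e/f/g/h and miR319i, were 2 substitutions away, and the nearest to miR159a and miR159c were 3 away.

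All 5 miR159 names were higher in shoot tips than in leaves. Almost all of the family's abundance lay under miR159a and miR159b, which share 1 sequence. Every name in the table had an authors' FDR, an adjusted p-value, below 0.05, and 37.8% of the 193 names were higher in shoot tips, or 42.1% of sequences. The median log2 fold change, positive where shoot tips are higher, was 1.93 over the 5 names and 2.26 over the 4 sequences, against -2.75 over all 193 names and 3.07 over the 73 that were higher. The table holds 1 normalized read abundance per tissue, on a scale that is not stated, and no SD accompanies it. How reads that match several members were assigned is not stated either. Names that share a printed sequence can hold different values: miR319e and miR319f had 323 and 921 in leaves in the authors' deposited table. The abundance of a name is thus not a count of its printed sequence alone.

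MiR159a and miR159b, the canonical form that recognizes GAMYB transcripts, held the first places in shoot tips. In the authors' deposited table miR159a had an abundance of 317047 for shoot tips against 90908 for leaves, with a log2 fold change of 1.80 and an FDR of 8.26e-08. MiR159b had 317060 against 90918 in the authors' deposited table. Shoot tips thus had 3.49 times the leaf abundance. MiR159b ranked first and miR159a second of the 193 names in shoot tips, and sixth and seventh in leaves, where 5 names stood higher. Those 5 were miR396a and b, which share 1 sequence, and miR396c, d and e-5p, which share another. Among the 73 names higher in shoot tips the log2 fold changes of miR159a and miR159b ranked 60 and 61, so they were among the least changed. A rare name generally needs a larger difference to reach an FDR below 0.05. The filter thus bears on these ranks, and nothing is read from them. Taking 1 name per sequence, in alphabetical order, miR159a made up 61.5% of the summed abundance in shoot tips and 23.1% in leaves. These shares are of listed microRNAs alone, not of all reads. Both names have the same sequence, and their difference was 13.1 in shoot tips, 0.00413% of the miR159a value, and 9.73 in leaves. If miR159b has at least as many reads as miR159a in each library, that is 28 to 33 reads in shoot tips and 15 to 22 in leaves, so the values of these names repeat 1 measurement.

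The other 3 sequences were rare, and together they made up 0.776% of the family sum in shoot tips and 0.619% in leaves. Their pooled values are sums of whole reads from 2 libraries, and reads per library were recovered from the digits with the coarsest of several pairs of steps, a step being the signal of 1 read, that fitted the values. The libraries are unlabelled in the table, and every read count, library value and counting interval given here uses those steps. Of the other fits, all 8 for shoot tips and 10 of 11 for leaves would fill only a fraction of the possible pairs of whole reads, and the last would put 1 leaf library above the other in all 106 signals. Library values are on the scale of the table, taking the deposited value as the mean of both libraries, and the counting intervals cover counting error only.

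MiR159d, which shares its seed with miR159a, was the next most abundant member and followed it in the size of the difference. In the authors' deposited table it had 1868 for shoot tips against 489 for leaves, with a log2 fold change of 1.93 and an FDR of 6.13e-08. The shoot tip libraries were at 1501 and 2235, from 1907 and 2348 reads, and the leaf libraries at 482.7 and 495.4, from 547 and 373 reads. With these steps both shoot tip libraries lay above both leaf libraries, the lower one 3.03 times the higher leaf library, while the shoot tip libraries differed from each other by 1.49 times. Over every pair of steps that gave it a solution, shoot tip libraries went down to 594 and leaf libraries up to 812, which overlap. The ratio of 3.82 had a 95% counting interval of 3.56 to 4.11, against 3.49 for miR159a. Relative to miR159a it was at 0.589% in shoot tips and 0.538% in leaves, so the proportion of both sequences was nearly the same in the tissues.

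MiR159c, whose seed differs at position 7, had a larger difference. The authors' deposited table gave it 444 for shoot tips against 72.3 for leaves, with a log2 fold change of 2.60 and an FDR of 1.95e-08. The shoot tip libraries were at 302 and 586, from 384 and 616 reads, and the leaf libraries at 74.1 and 70.4, from 84 and 53 reads. With these steps the tissues did not overlap, but the shoot tip libraries differed by 1.94 times and the leaf libraries by 1.05 times. Over every pair that fitted, shoot tip libraries ran from 119.5 to 769 and leaf libraries from 23.6 to 120.9, so the tissues met. The ratio of shoot tips to leaves was 6.15 (95% counting interval 5.14 to 7.41), and between single libraries it ran from 4.08 to 8.33. Its level was 0.140% of miR159a in shoot tips and 0.0795% in leaves.

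MiR159e was the rarest member and the one with the largest difference. The authors' deposited table gave it 167 for shoot tips against 4.64 for leaves, with a log2 fold change of 5.06 and an FDR of 2.47e-13. The shoot tip libraries were at 170 and 164.7, from 216 and 173 reads. The leaf libraries were at 5.30 and 3.98, and these rest on 6 and 3 reads, 9 in all, for which an exact Poisson 95% interval allows 4.12 to 17.1. Finer steps gave up to 24 leaf reads, with leaf libraries from 1.34 to 7.94 and shoot tip libraries from 67.2 to 267, which did not overlap. With the coarsest steps the lower shoot tip library was at 31.1 times the higher leaf library. The ratio of 36.1 had a 95% counting interval of 18.8 to 79.5, above the upper ends of those of miR159c and miR159d. MiR159a outnumbered miR159e by 1895 times in shoot tips and by 19590 times in leaves. With the coarsest steps both shoot tip libraries of miR159c, d and e lay above both leaf libraries. So did those of 63 (36.8%) of the 171 names whose reads were recovered in both tissues. The other 108 had both shoot tip libraries below both leaf libraries. Every recovered name was thus separated, and the separation is not particular to miR159.

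**Figure D1:**
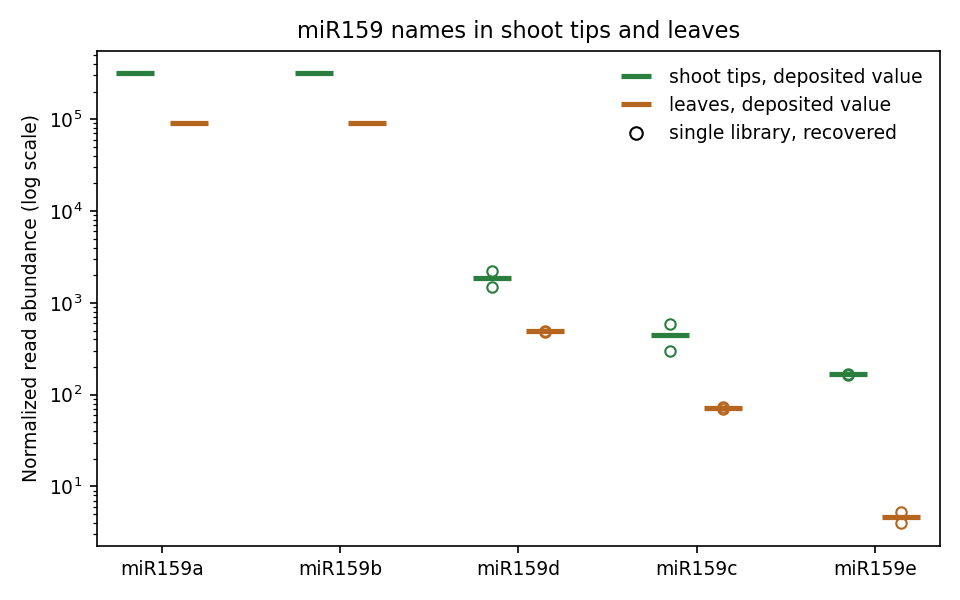
Normalized read abundance (vertical log axis) of the 5 miR159 names in shoot tips (green) and leaves (brown); bars are the deposited values and open circles the 2 libraries of miR159c, d and e recovered with the coarsest steps. MiR159a and miR159b lie above all others, from 90908 upward, and the gap between tissues widens down to miR159e, at 167 against 4.64.

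Ordered by level, the members were miR159a and miR159b, then miR159d, miR159c and miR159e in both tissues, and the authors' log2 fold changes in that order were 1.80, 1.93, 2.60 and 5.06, each larger than the one before. With the coarsest steps the libraries of miR159d, c and e did not overlap within either tissue, and those of miR159a and miR159b could not be recovered. The authors' fold change exceeded that of miR159a by 0.13 on the log2 scale for miR159d, 0.80 for miR159c and 3.26 for miR159e. The order over 4 sequences is a description. A rare member with a small difference could have missed the FDR below 0.05 and would not be listed. Whether a few reads of more abundant relatives were counted under the rare names was not tested. MiR319 names, whose sequences differ from the miR159 ones by 1 to 4 substitutions, had log2 fold changes from 3.07 (miR319i) to 7.46 (miR319b) in the authors' deposited table. MiR159e, at 5.06, lay within that range, and miR159a, b, c and d lay below it. MiR159d, 1 substitution from miR319e/f/g/h, had 1.93, while miR319f and miR319g had 5.47 and miR319e and miR319h had 6.77 in the authors' deposited table.

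**Figure D2:**
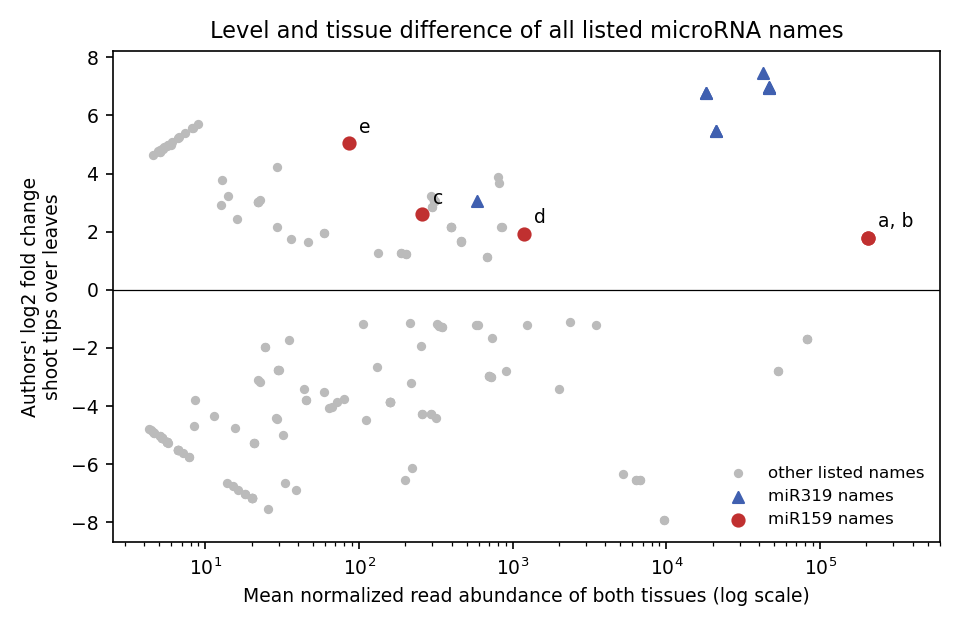
Authors' log2 fold change, shoot tips over leaves, on the vertical axis, against the mean normalized read abundance of both tissues (horizontal log axis) for the 193 listed names, with miR159 names as red circles and miR319 names as blue triangles. MiR159a and b, at 1.80, lie far to the right with a small difference, and miR159e, at 5.06, lies to the left and high.

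The names most like miR159a and miR159b in log2 fold change were all much less abundant. The nearest 5 outside the family were a numbered microRNA without a family name (1.75), miR1446c and miR1446e (1.68 each), miR1446d (1.65) and miR169t (1.64) in the authors' deposited table. Their shoot tip values ran from 55.7 to 699.6 in the authors' deposited table, against 317047 for miR159a. The sequence of miR1446c, d and e was listed under 5 names. In the authors' deposited table miR1446a and miR1446b had log2 fold changes of 2.15 and 2.17, with shoot tip values of 1379 and 1383. The nearest in mean level were 5 names of miR396, a family that targets growth-regulating factors, and all 5 were lower in shoot tips. In the authors' deposited table miR396d had 38747 against 126570, a log2 fold change of -1.70, and miR396a had 13389 against 93155, a log2 fold change of -2.79. MiR396d, c and e-5p share 1 sequence and miR396a and b another.

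The predicted targets of the 4 sequences were mostly different loci, with the GAMYB-type loci as the shared core. The table gave 165 distinct loci for miR159a and the same 165 for miR159b, 151 for miR159d, 173 for miR159c and 156 for miR159e, or 506 in all of the 10305 in the table. Of these 506, 402 (79.4%) were listed for 1 miR159 sequence, 76 for 2, 21 for 3 and 7 (1.38%) for all 4. MiR159c stood most apart, with 133 of its 173 loci (76.9%) listed for no other miR159 sequence, and miR159d least, with 65 of 151 (43.0%). No transcript was measured at a predicted locus, and loci of related sequence are not independent. The table gives no target site and no score, so the sites are not shown.

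The largest overlap was between the members that share a seed. MiR159a/b and miR159d had 67 loci in common, 40.6% of the former and 44.4% of the latter, and 31 of these were also listed for miR319. MiR159a/b and miR159c, also 3 substitutions apart, had 20 in common, 12.1% and 11.6%. MiR159a/b and miR159e, 5 substitutions apart, shared 14. MiR159d and miR159e, 2 substitutions apart and with the same first and last bases, shared 29, or 19.2% and 18.6%. MiR159c and miR159e, 4 substitutions apart and with other first and last bases, shared 28, or 16.2% and 17.9%. MiR159d shared 57 loci, 37.7% of its own, with the miR319e/f/g/h sequence, fewer than with miR159a/b but more than with miR159e or with miR159c (23).

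**Figure D3:**
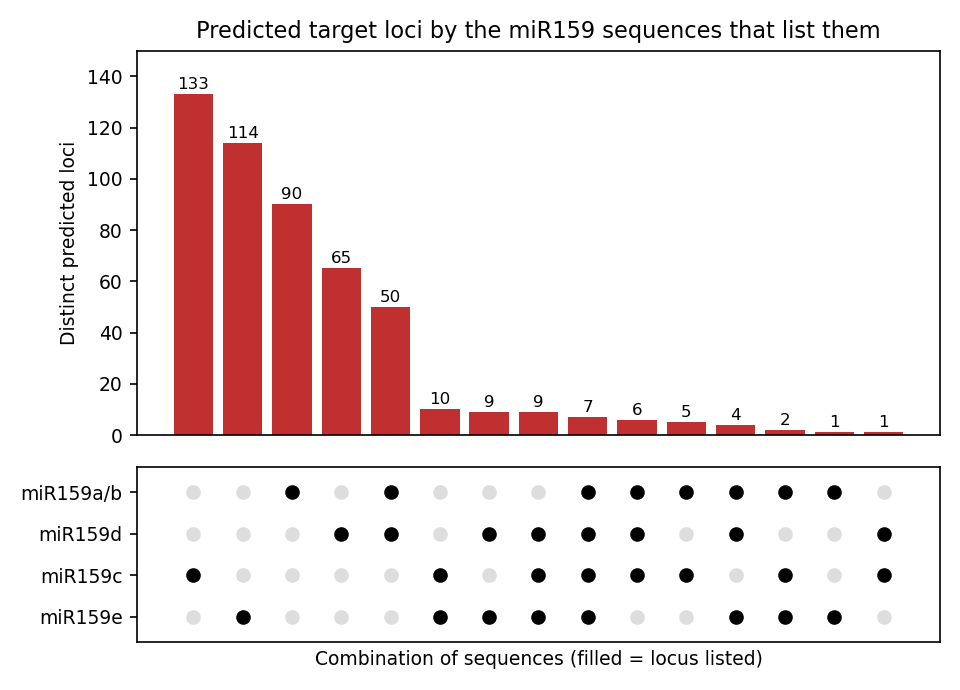
Number of distinct predicted loci (vertical axis) for each combination of miR159 sequences that list them, with filled dots marking the sequences. The bars for single sequences, from 65 to 133, exceed every shared one, of which the pair of miR159a/b and miR159d is the highest at 50.

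All 4 sequences listed the same GAMYB-type loci. POPTR_0001s07330, POPTR_0001s23170, POPTR_0003s18900 and POPTR_0009s02380, each described as transcription factor GAMYB of rice, were listed for miR159a/b, c, d and e alike and for all 3 miR319 sequences. They made up 4 of the 7 loci common to the whole family. Of the 506 loci 0.791% were GAMYB-type, against 0.0204% (2 loci) of the table's other loci. No sequence predicted for one of the 4 was lower in shoot tips, against 25.7% of all 506 miR159 loci with such a sequence. All listed miR159 and miR319 names were higher in shoot tips, so this was largely fixed and nothing is read from it. POPTR_0001s23170 was also listed for a numbered microRNA, and the other 3 for miR159 and miR319 alone.

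The descriptions of the remaining 3 loci of all 4 sequences held no MYB name, and each locus was also listed for miR319. POPTR_0006s03340 was described as LUX, a MYB-like DNA-binding protein and a component of the evening complex of the circadian clock in Arabidopsis. POPTR_0007s07310 was described as premnaspirodiene oxygenase, a cytochrome P450 of terpenoid synthesis in henbane, and POPTR_0013s14200 had no description. POPTR_0007s07310 was also listed for 1 sequence lower in shoot tips.

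Other MYB loci depended on the member. Of 56 in the table, 6 were listed for miR159. MYBAS2, a MYB-related protein named in rice, described 3 loci. POPTR_0002s14180 was listed for miR159a/b and d, POPTR_0014s05370 and POPTR_0014s05420 for miR159a/b, d and e, and none of them for miR159c; all 3 were listed for miR319. POPTR_0006s08570, described as MYB3R-1, which controls genes of the dividing cell in Arabidopsis, was listed for miR159a/b, c and d and not for miR319, but also for miR164. POPTR_0013s14550 (Myb4) and POPTR_0019s14120 (MYB6, a repressor) were listed for miR159e alone. Thus, by the words of the descriptions, miR159a/b, d and e each had 8 MYB loci with the GAMYB-type ones included, and miR159c had 5. LUX, called MYB-like above, is not in these counts, since its description holds no MYB name. Neither are POPTR_0016s03240 (PCL1) and POPTR_0014s10260 (LHY), both listed for miR159e alone, whose descriptions also hold no MYB name.

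TCP factors, the known targets of miR319, were listed for the rare members and not for miR159a/b. MiR159d had 6 TCP loci: POPTR_0004s06440 and POPTR_0011s02350 (TCP2), and POPTR_0001s38480, POPTR_0011s09890, POPTR_0013s12370 and POPTR_0019s12110 (TCP4). MiR159c and miR159e each had POPTR_0011s02350 alone. MiR159a/b had 0 of the 12 TCP loci in the table, and the same 6 loci were the TCP loci of miR319. POPTR_0012s11080, described as PCF6, a rice TCP factor by another name that was picked out after its entry was seen, was also listed for miR159d and miR319. In abundance miR159d was at 0.589% of miR159a in shoot tips.

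**Figure D4:**
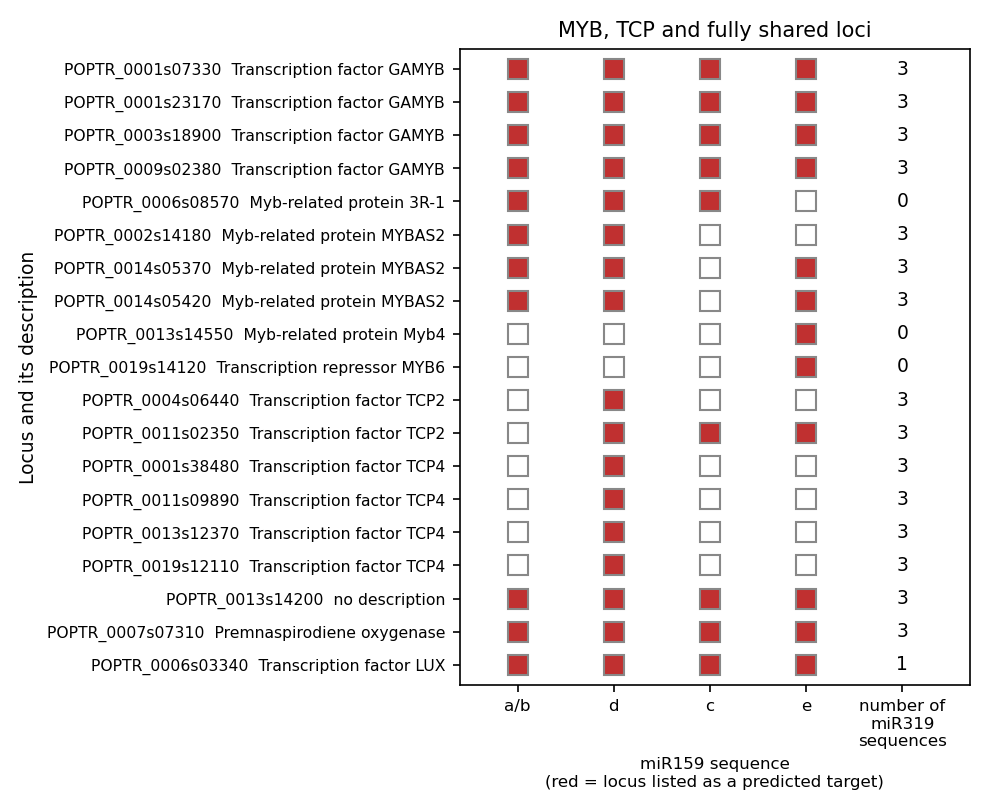
Loci (rows) described as GAMYB, other MYB or TCP, or listed for all 4 sequences, against the miR159 sequences (columns), with a red square where the locus is a predicted target and the number of miR319 sequences that list it at the right. The 4 GAMYB rows are filled for every sequence, and the TCP4 rows are filled for miR159d only.

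Loci shared with miR319 were 114 of the 506, or 22.5%, and 114 of the 293 of miR319. The share was 42.4% for miR159d, 33.3% for miR159e, 30.3% for miR159a/b and 13.9% for miR159c. Of the 104 loci listed for several miR159 sequences 46.2% were listed for miR319, against 16.4% of the 402 listed for 1. Numbered microRNAs listed 119 of the miR159 loci, and the next families, miR171 and miR403, listed 9 each. A sequence lower in shoot tips was predicted for 130 of the 506 loci, or 25.7%, against 69.1% of the other loci of the table, and nothing is read from this gap, since each miR159 locus already has a sequence that is higher. There were 240 loci (47.4%) listed for miR159 alone.

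Classes were assigned by words of the descriptions, so their counts cover matched words and not every gene of a kind. They took in 175 of the 506 loci, while 252 (49.8%) had a description outside the listed classes and 79 (15.6%) had none. Receptor-like proteins and protein kinases were the largest described class, with 67 loci or 13.2%, against 8.15% of the table's other loci, and 11 of the 67 were shared by several miR159 sequences. POPTR_0001s01730 (receptor-like kinase SD1-8) was listed for miR159a/b and POPTR_0001s03060 (a leucine-rich repeat receptor-like kinase) for miR159c. ABC transporters, membrane pumps driven by ATP, were 11 loci (2.17% against 0.755%), and 9 of them were listed for miR159c. POPTR_0002s18860 (B family member 4) was listed for miR159e and POPTR_0003s19650 (C family member 3) for miR159c, as were the 3 other loci of that description. F-box proteins, which select proteins for degradation, were 10 loci (1.98% against 1.04%), 6 of them listed for miR159c. Zinc finger proteins were 8 loci (1.58% against 1.08%), of which miR159d had 6, miR159e 5, miR159c 3 and miR159a/b 1. They included POPTR_0001s24250 (ZAT11) and POPTR_0002s12010 (ZAT10), stress-response repressors in Arabidopsis.

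By these words, several classes were no more frequent than among the other loci of the table. Disease resistance proteins were 12 loci (2.37% against 2.76%), 7 of them listed for miR159a/b, and pentatricopeptide repeat proteins, which process organelle RNA, were 6 (1.19% against 2.99%). A mixed class of other transcription factor and response regulator names held 14 (2.77% against 3.17%), PCF6 included. Names such as auxin response factor, scarecrow-like, SHORT-ROOT, squamosa promoter-binding-like, BEL1-like and LHY fell outside it. GAMYB-type (0.791% against 0.0204%), other MYB (1.19% against 0.51%) and TCP loci (1.19% against 0.0612%) were counted apart. The mixed class is therefore not a count of all transcription factors. In it POPTR_0001s13910, described as ARR22, a two-component response regulator of cytokinin signalling in Arabidopsis, was listed for miR159a/b and d, and POPTR_0002s03380 (bHLH110) for miR159a/b, d and e. The words used for cell wall enzymes, which leave out names such as pectate lyase and endoglucanase, matched 5 loci (0.988% against 1.54%), and expansin-A12, POPTR_0001s41210, was listed for miR159d and e. No locus of the DUO1, ACC synthase, oligopeptide transporter or heat shock classes was listed for miR159, out of 0, 5, 4 and 17 in the table.

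**Figure D5:**
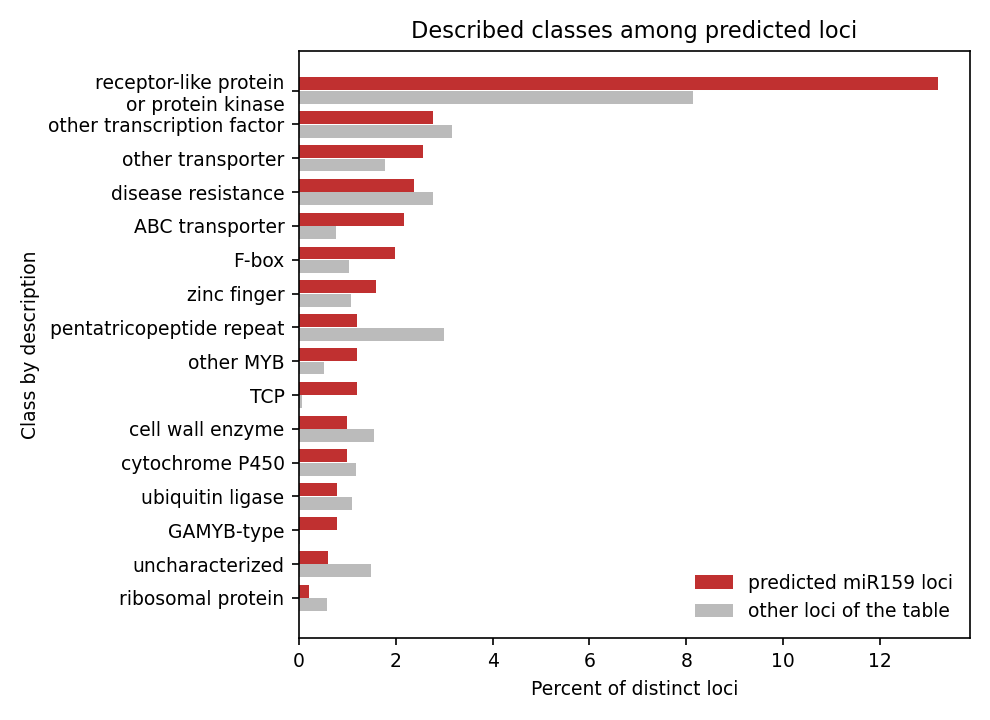
Percent of distinct loci (horizontal axis) in each class of description, for the predicted miR159 loci (red) and the other loci of the table (grey). Receptor-like proteins and protein kinases lead at 13.2% against 8.15%, and the GAMYB-type and TCP classes are small among miR159 loci and close to 0 among the others.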

How the data were processed

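RNA of shoot tips and leaves was isolated by a Trizol procedure adapted to a plant kit and sequenced as Illumina libraries, per the labels' protocols. For trimming, alignment, build, counting, scaling, target prediction and testing, tools are not given in the sources used. The authors' deposited table holds per name 1 signal per tissue, a normalized read abundance, a log2 fold change and an FDR, an adjusted p-value. Of its 845 lines for miR159, 35 repeated another line; each name and locus was counted once.

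No test was added because single libraries have no column; the authors' FDR below 0.05 was used. Members, classes and lists were chosen with earlier results of these data known. Loci were classed by words of their Swiss-Prot descriptions, each in the first class that matched, so genes named by other words are not counted; 0 of the 506 matched the reference gene table. Named loci were every GAMYB-type, MYB and TCP locus listed for miR159, and those of all 4 sequences. For other classes described in detail, at most the first 2 by identifier were named. PCF6, PCL1, LHY and the loci under other observations were named outside this rule. The nearest 5 names in log2 fold change and in mean level were also named.

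Reads of 2 unlabelled libraries were recovered as whole multiples of 2 steps, searched between 0.15 and 1.5, for signals up to 5000. A solution was kept within 1.2 times the rounding error and when the next best missed by at least 10 times as much. All 100 distinct shoot tip and 106 leaf signals were recovered with the coarsest steps, 0.394 and 0.476 in shoot tips and 0.441 and 0.664 in leaves. In all, 9 and 12 pairs of steps fitted, and the digits alone do not choose among them. On reads simulated and solved with the coarsest steps, 100 of 100 and 106 of 106 kept solutions were right. Since the steps were given, this does not bear on the choice among them. Counting intervals were at 95%, exact Poisson for reads and Clopper-Pearson for ratios. Those for ratios used the reads pooled over both libraries, rescaled at a fixed signal per read. They are therefore approximate, since the steps of the libraries differ. Python 3.11.15, numpy 2.4.6, scipy 1.17.1, pandas 2.3.3 and matplotlib 3.10.9 were used.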

Additional observations from a re-analysis of the deposited data

How the results depend on the processing

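The count of 5 miR159 names higher in shoot tips was 5 with an FDR below 0.01 and 5 at a 2-fold minimum once the total excluded miR159 and miR319. It was 4 with each sequence once and 4 with a signal of at least 5 in both tissues, which removes miR159e. If the signals are shares of all reads, excluding both families would raise every log2 ratio by 0.72. All 5 names were already more than 2-fold higher, so the 2-fold setting could not lower the count. With a pseudocount of 1 the log2 ratio of miR159e was 4.90 in place of 5.17. Leaving out 1 recovered library in turn gave log2 ratios of 2.07 to 3.02 for miR159c, 1.62 to 2.19 for miR159d and 4.98 to 5.39 for miR159e; miR159a and miR159b are too abundant for their reads to be recovered. Under every kept pair of steps, a choice added after the data were seen, the miR159e libraries ran from 67.2 to 267 in shoot tips and from 1.34 to 7.94 in leaves. Those of miR159d ran from 594 to 3142 and 166 to 812, and those of miR159c from 119.5 to 769 and 23.6 to 120.9, so the separation of single libraries of these members depends on the coarsest steps. Leaf reads of miR159e came to 9 with the coarsest steps and up to 24 with finer ones. Counting all MYB-type descriptions gave 10 loci in place of 4 GAMYB-type loci, and miR159a/b alone or miR159c, d and e alone gave 4 each. Counting transcripts was not run, since the table names loci. No paired analysis was possible because each tissue has 1 pooled column without replicate numbers. Depth limits the leaf value of miR159e most.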

Other observations

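Of 20 descriptions shared by at least 3 miR159 loci, 5 were listed for 1 miR159 sequence alone. The examples here were picked out after their entries were seen, and no test was made. The 4 loci described as PP2A catalytic subunits, the core of a protein phosphatase, were listed for miR159a/b alone. The 5 loci described as F-box protein At5g41720 were all listed for miR159c, 1 of them also for miR159d. Both loci of thermospermine synthase ACAULIS5, which limits xylem differentiation in Arabidopsis, POPTR_0008s15120 and POPTR_0010s09940, were listed for miR159d and for miR169. Of 2 auxin response factor loci, POPTR_0020s00210 was listed for miR159c, d and e and POPTR_0014s12980 for miR159d and e, both also for miR319 and neither for miR159a/b. Of 10 loci described as the ribonuclease H protein At1g65750, miR159a/b and miR159d had 3 each, miR159e 5 and miR159c 0.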
